A study of Rattus norvegicus with 8 samples.

Results

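The genes of RNA splicing and mRNA processing described here are those rows of a deposited RNA-seq table whose Gene Ontology annotation names RNA splicing, mRNA splicing, mRNA processing or the spliceosome. Rows that also carry a term for cell division, mitosis, DNA replication or DNA repair, single-stranded DNA binding or a structural part of the ribosome were left out. The phrases matched 74 of 4226 rows, the exclusions removed 3, and 71 remained, made up of 65 protein-coding genes, 5 long noncoding RNAs and 1 pseudogene. The wording of the terms let in 8 genes solely through the cytoplasmic P-body, which stores and degrades mRNA, and 5 solely through the splicing of tRNA, and these are described apart.

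The cells were rat nucleus pulposus cells, which fill the soft centre of the disc between vertebrae. In the study's design the cells' own SOD1, the cytosolic copper-zinc superoxide dismutase, was knocked down. SOD1 was then supplied by transfection, as the K123R form with a lysine replaced by arginine (SOD1-K123R, 4 libraries) or as the wild-type form (SOD1-WT, 4 libraries), and cells of both groups were in 10 mM lactate for 7 days. The labels give neither the rat strain nor whether replicates were separate cultures, and p-values therefore reflect library-to-library spread that may be technical. The table heads the SOD1-WT columns with Ctrl and the SOD1-K123R columns with L. The labels do not expand that letter, so whether the columns also differ in lactate was not tested. Sod1 itself was not analysed here, so the knockdown and the level of supplied SOD1 could not be checked.

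Splicing removes introns from the primary transcript. The spliceosome is built anew on each intron from small nuclear ribonucleoproteins (snRNPs): U1 and U2 recognise the ends of the intron and the branch site, the tri-snRNP of U4, U6 and U5 joins them, and further proteins remodel the complex, catalyse the reaction and release the product. SR proteins, rich in arginine and serine, favour the use of nearby splice sites, and many hnRNP proteins oppose it. Kinases of the CLK family phosphorylate SR proteins in the nucleus and so control where they act.

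Values are TPM, a measure of abundance corrected for transcript length and expressed per library, from which sequencing depth cannot be recovered. Of the 71 genes, 61 averaged at least 1 TPM across all libraries and were tested with limma on log2(TPM + 1), SOD1-K123R minus SOD1-WT, two-sided, with the Benjamini-Hochberg adjustment over all 2890 genes tested. A gene passed at an adjusted p under 0.05, and the verbs rose and fell are kept for genes that did. In bulk RNA, fewer cells of a type and less RNA per cell cannot be told apart.

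All 61 tested genes passed, 38 of them higher and 23 lower in SOD1-K123R. Passing is not informative by itself in this table, since 95.7% of all genes tested passed. The rows are part of a transcriptome, with columns summing to 235371 to 243393 TPM in SOD1-K123R and 187515 to 198656 TPM in SOD1-WT, and how they were chosen is not stated in any source used here. The direction was less like the background: 62.3% of the splicing and processing genes were higher, against 44.6% of all genes tested, and 37.7% were lower, against 51.1%. With annotation phrases on splicing alone this lean was weaker, at 25 higher and 21 lower. At least 2-fold higher were 27 of 61 (44.3%, against 26.0% of all genes tested), and at least 2-fold lower were 17 (27.9%, against 35.8%). The median log2 fold change was 0.93, against -0.49 over all genes tested. The median of all genes turned to 0.27 when only the 1896 genes averaging at least 5 TPM were kept, beside 0.98 for the 52 splicing and processing genes among them, of which 34 were higher, against 948 of the 1896. The tested splicing and processing genes were the more abundant, with a median of 26.9 TPM against 9.14 TPM for all genes tested. The median log2 fold change without sign was 1.25, against 1.14. The groups did not overlap for 60 of the 61 genes, 37 higher and 23 lower, where the shares of all genes tested were 91.4% in all, 42.6% higher and 48.8% lower.

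**Figure D1:**
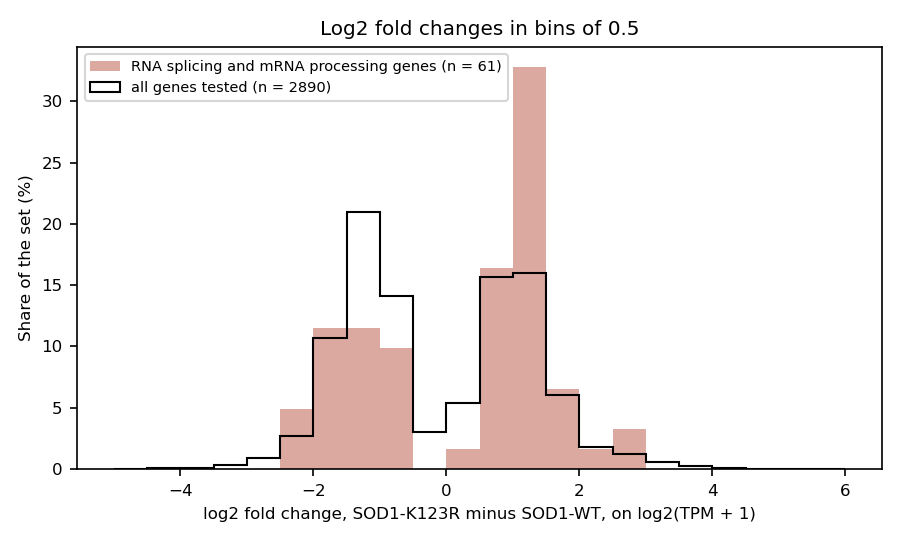
Share of genes (vertical axis, %) by log2 fold change, SOD1-K123R minus SOD1-WT, in bins of 0.5 (horizontal axis), for the 61 RNA splicing and mRNA processing genes (filled) and all 2890 genes tested (line). Both sets have a peak on each side of 0, and the filled peak on the higher side is the taller of its pair.

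Kinases and their SR protein substrates moved in opposite directions. Clk1, which encodes a dual-specificity kinase of SR proteins, read 161, 171, 137 and 121 TPM in SOD1-K123R libraries, against 18.3, 24.4, 34.3 and 19.9 TPM in SOD1-WT libraries. Every SOD1-K123R library lay above every SOD1-WT library, and the mean was 6.09-fold higher, at 147 ± 22.6 TPM in SOD1-K123R and 24.2 ± 7.22 TPM in SOD1-WT (mean ± SD, n = 4 each, as for all such values). Its log2 fold change of 2.59 (SE 0.17, adjusted p = 2.96e-08) was the largest in size among the 61 genes on log2(TPM + 1). With a pseudocount of 0.1 Rbm38 was above it, at 2.64 against 2.63, and by the ratio of means both Rbm38 and Dqx1 were (6.29-fold and 20.6-fold).

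Clk4, a close relative of Clk1, read 21.4, 21.7, 18.9 and 17.5 TPM in SOD1-K123R libraries, against 3.59, 6.96, 10.5 and 6.05 TPM in SOD1-WT libraries. The groups were apart, although SOD1-WT replicate 3 was well above the other libraries of its group, and the log2 fold change was 1.50 (SE 0.22, adjusted p = 2.41e-05). Clk3, the third CLK kinase in the table, had values of 60.3, 64.9, 59.3 and 63.5 TPM in SOD1-K123R libraries, against 22.6, 21.5, 22.3 and 23.7 TPM in SOD1-WT libraries. Its libraries were tight within each group, and its log2 fold change was 1.42 (SE 0.08, adjusted p = 6.94e-09). Cdk13, a cyclin-dependent kinase of the RNA polymerase II tail that is also linked to splicing, rose less, by a log2 fold change of 0.99 (SE 0.12, adjusted p = 4.65e-06), with 20.9 ± 2.63 TPM in SOD1-K123R and 10.0 ± 1.19 TPM in SOD1-WT. All 4 tested genes on a list of 13 kinases acting on splicing factors were thus higher, where 44.6% of all genes tested were.

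The SR proteins in the table were Srsf3, Srsf6 and Srsf1, and all 3 fell, where 51.1% of all genes tested were lower. Srsf3, the smallest classical SR protein, also active in mRNA export, read 31.2, 32.7, 31.8 and 25.6 TPM in SOD1-K123R libraries, against 118, 127, 146 and 119 TPM in SOD1-WT libraries. Its groups lay far apart, with a mean 4.20-fold lower in SOD1-K123R and a log2 fold change of -2.04 (SE 0.10, adjusted p = 2.81e-09). Srsf6 read 34.1, 30.0, 28.6 and 26.0 TPM in SOD1-K123R libraries, against 82.1, 77.7, 80.2 and 80.7 TPM in SOD1-WT libraries, a log2 fold change of -1.41 (SE 0.09, adjusted p = 2.25e-08), with SOD1-WT libraries close to each other.

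Srsf1, the founding SR protein, first known as ASF/SF2, read 30.6, 33.1, 25.2 and 20.2 TPM in SOD1-K123R libraries, against 53.5, 59.1, 67.7 and 57.8 TPM in SOD1-WT libraries. The spread within SOD1-K123R was wider here, but its highest library was still below the lowest SOD1-WT library, and the log2 fold change was -1.12 (SE 0.14, adjusted p = 6.35e-06). Summed over the 3 genes, SR protein transcripts came to 71.7 to 95.9 TPM in SOD1-K123R libraries and 253 to 293 TPM in SOD1-WT libraries. The other 10 SR proteins of the list were not analysed here.

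**Figure D2:**
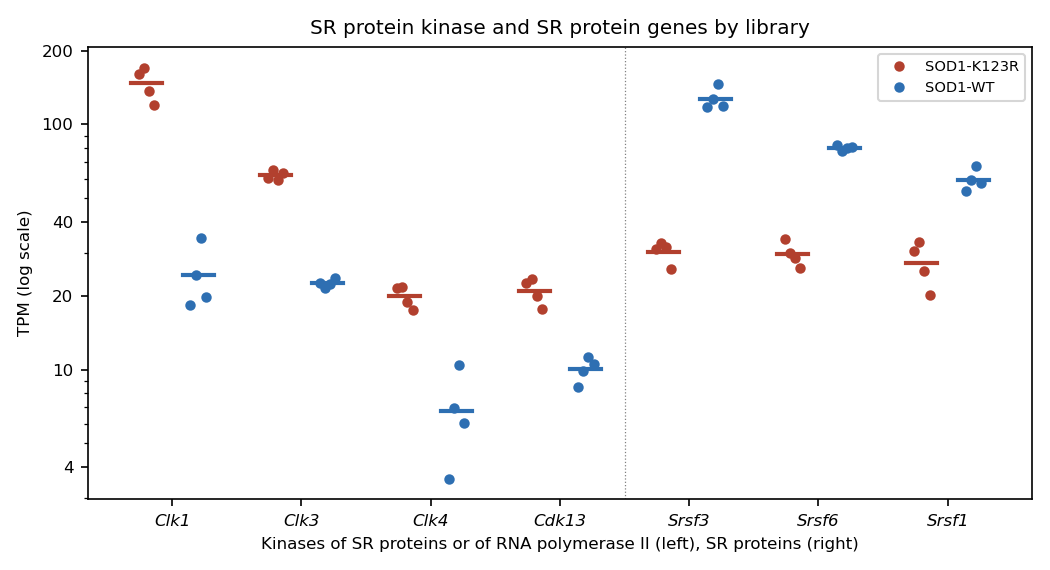
TPM on a log scale (vertical axis) in each library for Clk1, Clk3, Clk4 and Cdk13 (left of the dotted line) and Srsf3, Srsf6 and Srsf1 (right), with SOD1-K123R in red to the left of SOD1-WT in blue. Bars are group means of 4 libraries. The kinase genes are higher and the SR protein genes lower in every SOD1-K123R library than in any SOD1-WT library.

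Promoters are shown for a kinase gene and for SR protein genes, since each of these groups moved together, and for Sf3b1, a branch site factor described further on. Windows of 300 bases, from 250 before to 50 after the RefSeq transcription start on the rat GRCr8 assembly, were found by symbol for 50 of the 71 genes, 30 of those higher and 17 of those lower. Capitals mark matches, on either strand, to motifs chosen with the results known: the cAMP response element TGACGTCA, the CCAAT box CCAAT, the GC box GGGCGG, the ETS site CCGGAAGT and the E-box CACGTG. The 4 windows are those of Clk1 (chr9:67453131-67453430, minus strand) and Sf3b1 (chr9:64026670-64026969, minus strand), which rose, and of Srsf3 (chr20:7093335-7093634, plus strand) and Srsf6 (chr3:172008822-172009121, plus strand), which fell.
Clk1: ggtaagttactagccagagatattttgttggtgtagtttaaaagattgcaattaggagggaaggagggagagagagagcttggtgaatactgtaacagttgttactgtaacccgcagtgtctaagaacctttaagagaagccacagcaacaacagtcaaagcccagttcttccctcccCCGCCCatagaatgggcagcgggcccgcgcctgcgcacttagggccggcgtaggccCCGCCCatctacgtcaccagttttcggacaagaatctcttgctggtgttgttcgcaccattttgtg
Sf3b1: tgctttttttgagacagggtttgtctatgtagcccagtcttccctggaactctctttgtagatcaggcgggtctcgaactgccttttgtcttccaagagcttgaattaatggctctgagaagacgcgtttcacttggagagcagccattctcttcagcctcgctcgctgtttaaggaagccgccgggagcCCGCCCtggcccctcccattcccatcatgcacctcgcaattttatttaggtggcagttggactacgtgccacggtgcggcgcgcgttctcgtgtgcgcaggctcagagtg
Srsf3: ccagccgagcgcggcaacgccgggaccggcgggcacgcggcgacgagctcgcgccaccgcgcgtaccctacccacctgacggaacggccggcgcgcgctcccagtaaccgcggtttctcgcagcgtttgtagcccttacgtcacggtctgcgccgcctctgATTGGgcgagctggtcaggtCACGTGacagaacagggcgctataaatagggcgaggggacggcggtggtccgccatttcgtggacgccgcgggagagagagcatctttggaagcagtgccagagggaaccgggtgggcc
Srsf6: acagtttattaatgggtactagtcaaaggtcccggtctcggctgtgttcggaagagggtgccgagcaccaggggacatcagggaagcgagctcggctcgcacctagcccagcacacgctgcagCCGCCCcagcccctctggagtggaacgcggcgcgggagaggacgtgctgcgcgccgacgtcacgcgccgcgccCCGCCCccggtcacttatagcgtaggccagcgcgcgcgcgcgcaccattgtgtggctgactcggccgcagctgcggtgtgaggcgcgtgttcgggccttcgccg

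The Clk1 window held 2 GC boxes, beginning 72 and 16 bases before the start, and Sf3b1 held 1. In Srsf3 a CCAAT box in reverse orientation and an E-box lay 89 and 69 bases before the start, and Srsf6 held 2 GC boxes. Some genes have more than 1 window. Over the matched promoters, a CCAAT box was in 7 of 33 windows of higher genes (21.2%) and 11 of 18 of lower genes (61.1%), beside 37.0% for all tested genes and 37.5% for all promoters. A GC box was in 63.6% of windows of higher genes and 33.3% of windows of lower genes, beside 60.0% for all tested genes and 33.1% for all promoters. The E-box was in 3 of the 33 windows of higher genes (9.09%) and 2 of the 18 of lower genes (11.1%), beside 10.1% for all tested genes and 6.42% for all promoters. The ETS site was in 3 windows of higher genes (9.09%) and 0 of lower genes, beside 6.46% for all tested genes and 3.81% for all promoters. The cAMP response element was in 2 windows of higher genes (6.06%), those of Clk4 and Akap17a, and 0 of lower genes, beside 2.76% for all tested genes and 1.83% for all promoters. The GC box can share letters with other matches in GC-rich windows, and a match is only a run of letters.

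Among hnRNP-type proteins, which coat nascent transcripts, 5 of 6 tested list genes fell, where 51.1% of all genes tested were lower. Hnrnpm, which binds GU-rich RNA, read 47.5, 53.3, 35.5 and 40.4 TPM in SOD1-K123R libraries, against 93.1, 110.3, 134 and 99.5 TPM in SOD1-WT libraries, a log2 fold change of -1.29 (SE 0.14, adjusted p = 1.58e-06). Its highest SOD1-K123R library was below every SOD1-WT library. Hnrnpab, Hnrnpu and Hnrnpd, which the annotation rule did not select, also fell, with log2 fold changes of -1.62, -1.29 and -1.17. Hnrnph3 was the exception, at 46.8 ± 9.38 TPM in SOD1-K123R and 17.1 ± 1.16 TPM in SOD1-WT.

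Paraspeckles are nuclear bodies built on a long noncoding RNA. Sfpq, a DNA- and RNA-binding protein of these bodies, read 39.0, 37.6, 36.0 and 33.4 TPM in SOD1-K123R libraries, against 103, 103, 113 and 112 TPM in SOD1-WT libraries. Its groups lay far apart for the spread within them, with a log2 fold change of -1.53 (SE 0.08, adjusted p = 4.81e-09). Pspc1, its partner, was outside the annotation rule and fell as well (4.92 ± 0.599 TPM in SOD1-K123R and 20.5 ± 1.29 TPM in SOD1-WT).

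Genes with terms for complexes and steps of the spliceosome lay on both sides, 13 of 22 higher and 9 lower, with a median log2 fold change of 0.89. That was close to the whole set, of which 62.3% were higher, beside 44.6% of all genes tested. The 1 tested gene on the U1 snRNP list and those on the tri-snRNP list were lower. Snrpa, an RNA-binding protein of the U1 snRNP, read 14.4, 11.1, 10.4 and 11.5 TPM in SOD1-K123R libraries, against 47.6, 36.2, 36.6 and 47.0 TPM in SOD1-WT libraries, a log2 fold change of -1.73 (SE 0.13, adjusted p = 6.23e-08). Prpf31, which holds the tri-snRNP together, read 8.24, 8.21, 6.10 and 8.35 TPM in SOD1-K123R libraries, against 29.1, 26.0, 27.3 and 26.0 TPM in SOD1-WT libraries. SOD1-K123R replicate 3 was the lowest of its group, and the log2 fold change was -1.70 (SE 0.11, adjusted p = 2.62e-08). Lsm6, of the ring of LSm proteins on U6 RNA, read 21.8, 17.0, 21.3 and 19.5 TPM in SOD1-K123R libraries, against 59.5, 76.2, 82.2 and 71.7 TPM in SOD1-WT libraries, and its log2 fold change was -1.81 (SE 0.11, adjusted p = 1.89e-08).

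A second row of the table, without a symbol, is described in the annotation as an LSM6 homolog. It averaged 0.678 ± 0.150 TPM in SOD1-K123R and 1.65 ± 0.261 TPM in SOD1-WT, and reads of the pair may have been divided between near-identical copies. Zmat2, a zinc-finger protein of the precatalytic spliceosome, averaged 39.8 ± 3.85 TPM in SOD1-K123R and 100.3 ± 9.91 TPM in SOD1-WT, and Ppih, a cyclophilin of the tri-snRNP outside the annotation rule, averaged 15.2 ± 1.72 TPM in SOD1-K123R and 46.1 ± 4.90 TPM in SOD1-WT. All 4 tested tri-snRNP genes of a list of 26 were lower, where 51.1% of all genes tested were. Gemin8, of the SMN complex that loads Sm rings onto snRNAs, averaged 15.3 ± 0.956 TPM in SOD1-K123R and 42.0 ± 4.14 TPM in SOD1-WT. On its list, for the Sm core and snRNP assembly, 1 of 2 tested genes was higher and 1 lower. The higher was Snrpn, outside the annotation rule, at 114 ± 13.1 TPM in SOD1-K123R and 71.0 ± 10.3 TPM in SOD1-WT. Ppil3, a cyclophilin found in spliceosomes, averaged 10.5 ± 1.20 TPM in SOD1-K123R and 32.1 ± 1.82 TPM in SOD1-WT.

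The SF3B complex, which holds the branch site for U2, was split. Sf3b1, its scaffold, read 196, 195, 156 and 140.2 TPM in SOD1-K123R libraries, against 41.7, 62.9, 86.0 and 60.3 TPM in SOD1-WT libraries. Sf3b3, another of its subunits, read 17.6, 18.7, 15.8 and 17.8 TPM in SOD1-K123R libraries, against 55.9, 53.9, 51.1 and 57.1 TPM in SOD1-WT libraries. Sf3b1 was higher in every SOD1-K123R library, with a log2 fold change of 1.47 (SE 0.18, adjusted p = 6.28e-06), while Sf3b3 was lower in every one, with -1.59 (SE 0.09, adjusted p = 5.39e-09). The ratio between transcripts of the 2 subunits therefore differed between the groups, and the other SF3B genes were not analysed here. Smndc1, also called SPF30, which is needed for joining of the tri-snRNP, rose with Sf3b1, at 76.2 ± 2.44 TPM in SOD1-K123R and 31.3 ± 2.89 TPM in SOD1-WT.

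Genes of later steps were split. On the list of catalytic and release helicases 1 of 2 tested genes was higher and 1 lower, and on that of the PRP19 complex and related proteins 2 of 3 were higher and 1 lower. Gcfc2, a factor linked to the release of the spliced product, read 7.92, 8.10, 6.65 and 7.63 TPM in SOD1-K123R libraries, against 1.61, 2.37, 2.28 and 1.77 TPM in SOD1-WT libraries. The lowest SOD1-K123R library was above every SOD1-WT library at these low levels, and the log2 fold change was 1.52 (SE 0.13, adjusted p = 1.86e-07). Dhx9, an RNA helicase removed by the exclusions, fell, at 15.4 ± 2.62 TPM in SOD1-K123R and 46.6 ± 9.65 TPM in SOD1-WT. Cwc25, which acts at the first catalytic step, averaged 23.0 ± 1.56 TPM in SOD1-K123R and 10.1 ± 0.989 TPM in SOD1-WT, and Mfap1a, a spliceosomal protein outside the annotation rule, fell, at 3.24 ± 0.253 TPM in SOD1-K123R and 7.22 ± 0.359 TPM in SOD1-WT. Bud13, of a complex that aids retention and splicing of transcripts, averaged 27.7 ± 2.14 TPM in SOD1-K123R and 13.2 ± 0.960 TPM in SOD1-WT.

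Snrnp48, a protein of the minor (U12-type) spliceosome, which removes a rare class of introns, read 34.6, 37.4, 28.2 and 33.6 TPM in SOD1-K123R libraries, against 8.89, 11.2, 14.8 and 11.7 TPM in SOD1-WT libraries. The groups were apart, with a log2 fold change of 1.46 (SE 0.14, adjusted p = 5.89e-07). Of 4 tested genes on a list of 13 for that machine, 3 were higher, and Snrnp35, outside the annotation rule, was lower (7.53 ± 0.915 TPM in SOD1-K123R and 22.8 ± 3.81 TPM in SOD1-WT). Zrsr2-ps1, which the table names as a copy of the 3′ splice site factor Zrsr2 and calls protein-coding, averaged 10.4 ± 0.625 TPM in SOD1-K123R and 5.37 ± 0.415 TPM in SOD1-WT, and its TPM are uncertain where reads were shared with Zrsr2.

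The exon junction complex is left on mRNA where exons were joined. Casc3, its peripheral subunit, rose, with 63.9, 64.4, 53.5 and 59.9 TPM in SOD1-K123R libraries, against 26.6, 29.4, 28.7 and 29.7 TPM in SOD1-WT libraries, and a log2 fold change of 1.05 (SE 0.09, adjusted p = 1.86e-07). Magohb, a copy of the subunit MAGOH, fell, with 1.98, 3.33, 4.06 and 3.89 TPM in SOD1-K123R libraries, against 15.3, 15.7, 16.5 and 16.8 TPM in SOD1-WT libraries, and a log2 fold change of -2.01 (SE 0.16, adjusted p = 1.05e-07). The complex thus also had genes on each side. Magoh is nearly identical to Magohb in protein and was not analysed here, so the Magohb values are uncertain where reads were divided between them.

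**Figure D3:**
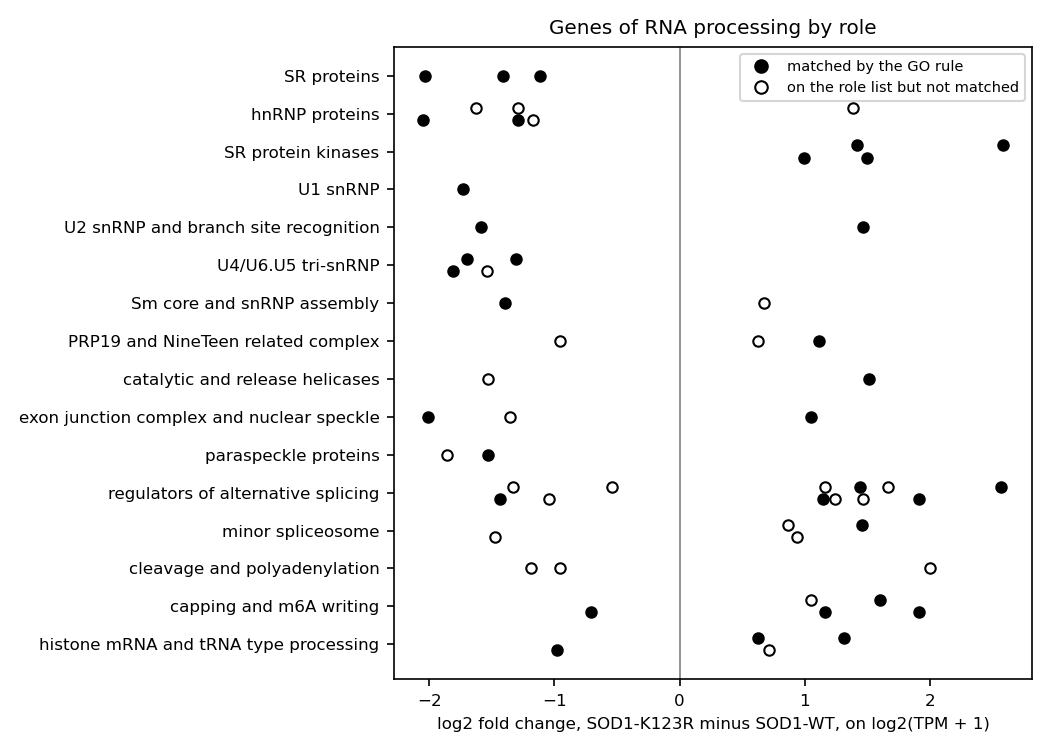
Log2 fold change, SOD1-K123R minus SOD1-WT (horizontal axis), of each tested gene on 16 lists of RNA-processing roles (rows); filled points are genes selected by the annotation rule and open points are list genes it did not select. SR protein, tri-snRNP and paraspeckle points all lie below 0, kinase points all lie above 0, and other rows with more than 1 gene have points on both sides.

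Over all 16 role lists, 65 of 367 different genes were in the table and 59 were tested, of which 29 were higher and 30 lower, with a median log2 fold change of -0.54. The higher share of all genes tested was 44.6%, and the 59 include 26 genes that the annotation rule did not select. The KEGG spliceosome pathway, which the rule did not use, held 10 of the 61 genes. Of these 8 were lower and 2, Sf3b1 and Smndc1, were higher. Adding the 1 further gene of that pathway in the table gave 9 of 11 lower, where 51.1% of all genes tested were lower.

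RNA-binding regulators of splicing included some of the highest rises. Rbm38, an RNA-binding protein known as a target of p53, read 93.8, 81.0, 95.3 and 81.3 TPM in SOD1-K123R libraries, against 13.4, 14.2, 12.6 and 15.6 TPM in SOD1-WT libraries. The groups lay far apart and the spread within each was small, for a mean 6.29-fold higher in SOD1-K123R and a log2 fold change of 2.57 (SE 0.10, adjusted p = 3.66e-10). Rbm39, also called CAPERα, which resembles the large U2AF subunit, read 198, 204, 147 and 127 TPM in SOD1-K123R libraries, against 46.2, 57.8, 81.0 and 61.3 TPM in SOD1-WT libraries. SOD1-K123R replicates 1 and 2 were well above 3 and 4, all were above SOD1-WT, and the log2 fold change was 1.44 (SE 0.18, adjusted p = 5.57e-06).

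Rsrp1, an arginine- and serine-rich protein, read 111, 108, 93.2 and 85.3 TPM in SOD1-K123R libraries, against 19.4, 25.1, 36.0 and 23.1 TPM in SOD1-WT libraries. Every SOD1-K123R library exceeded 80 TPM and no SOD1-WT library exceeded 40, for a log2 fold change of 1.92 (SE 0.16, adjusted p = 1.63e-07). Akap17a, which binds SR proteins and protein kinase A, averaged 70.9 ± 5.35 TPM in SOD1-K123R and 31.5 ± 2.74 TPM in SOD1-WT, and Khdc4, a KH-domain splicing factor, averaged 51.3 ± 6.50 TPM in SOD1-K123R and 21.0 ± 2.84 TPM in SOD1-WT. Rbm10, which represses the inclusion of certain exons, went the other way, with 8.51, 8.44, 8.30 and 9.55 TPM in SOD1-K123R libraries, against 26.4, 24.9, 24.3 and 25.2 TPM in SOD1-WT libraries, and a log2 fold change of -1.43 (SE 0.09, adjusted p = 1.96e-08). On the list of alternative splicing regulators, 8 of 12 tested genes were higher and 4 lower, where 44.6% and 51.1% of all genes tested were. Among the higher ones outside the annotation rule were the cyclins Ccnl1 and Ccnl2, partners of CDK11 kinases, with log2 fold changes of 1.47 and 1.67. Rbmx, Arglu1 and Celf2, also outside the rule, were lower, at -1.33, -1.04 and -0.54. Genes of the set with terms for regulated or alternative splicing or splice sites were nearly even, 9 of 17 higher and 8 lower.

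Genes of N6-methyladenosine (m6A), a mark on mRNA that influences splicing and decay, moved mostly up. Rbm15, which recruits the methyltransferase to its targets, read 15.2, 16.5, 14.1 and 14.7 TPM in SOD1-K123R libraries, against 2.99, 3.65, 3.18 and 3.24 TPM in SOD1-WT libraries. Alkbh5, a demethylase that removes the mark, read 61.9, 63.3, 63.5 and 63.5 TPM in SOD1-K123R libraries, against 19.8, 20.6, 19.6 and 20.3 TPM in SOD1-WT libraries. The libraries of each group were close together for both, Alkbh5 above all, and the log2 fold changes were 1.92 (SE 0.11, adjusted p = 6.85e-09) for Rbm15 and 1.60 (SE 0.08, adjusted p = 1.88e-09) for Alkbh5. Ythdc1, the nuclear reader of m6A, averaged 49.3 ± 9.31 TPM in SOD1-K123R and 21.6 ± 5.21 TPM in SOD1-WT. Mettl16, which methylates U6 RNA, was the exception and fell, at 1.97 ± 0.316 TPM in SOD1-K123R and 3.85 ± 0.552 TPM in SOD1-WT. Of 5 tested genes on a list of 19 for capping and m6A, 4 were higher, where 44.6% of all genes tested were.

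P-body genes rose in most cases. Of 11 tested genes with a P-body term, 9 were higher and 2, Lsm6 and Syne1, were lower. The higher share was 62.3% over the 61 genes and 44.6% over all genes tested. Dcp1a, a cofactor of the decapping enzyme, averaged 27.3 ± 2.49 TPM in SOD1-K123R and 11.2 ± 0.802 TPM in SOD1-WT, and Edc4, its scaffold, averaged 47.8 ± 5.03 TPM in SOD1-K123R and 27.2 ± 1.49 TPM in SOD1-WT. Pan2 and Pan3, the deadenylase pair that shortens poly(A) tails, had log2 fold changes of 1.19 and 1.19, and Patl1, which bridges deadenylation and decapping, had 1.02.

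Rc3h1, or roquin, which targets immune mRNAs for decay, averaged 15.5 ± 3.02 TPM in SOD1-K123R and 6.93 ± 1.93 TPM in SOD1-WT. Dcps, which breaks down the cap left after decay and enters through a splicing term, fell, with 9.29, 12.6, 9.65 and 13.3 TPM in SOD1-K123R libraries, against 38.1, 34.4, 29.5 and 38.9 TPM in SOD1-WT libraries, and a log2 fold change of -1.58 (SE 0.13, adjusted p = 1.9e-07). Atxn2l, a stress granule protein, averaged 136 ± 8.10 TPM in SOD1-K123R and 70.2 ± 6.52 TPM in SOD1-WT. Sqstm1, an autophagy receptor counted here solely through its P-body term, had the highest mean over all 8 libraries among the 61 genes, at 838 ± 44.3 TPM in SOD1-K123R and 449.7 ± 30.6 TPM in SOD1-WT. In the KEGG pathway of RNA degradation, 4 of the 6 genes shared with the present set were higher, and over all 9 tested genes of that pathway 5 were higher and 4 lower.

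The tRNA splicing genes were divided. Zbtb8os, or archease, an activator of the tRNA ligase, fell by 1.45 on the log2 scale, with 11.0, 12.9, 12.5 and 14.3 TPM in SOD1-K123R libraries, against 35.0, 37.2, 39.1 and 33.5 TPM in SOD1-WT libraries. Tsen54, a subunit of the tRNA splicing endonuclease, rose, at 11.6 ± 1.19 TPM in SOD1-K123R and 7.18 ± 0.938 TPM in SOD1-WT. Ern1, which encodes IRE1, the stress sensor that cuts the Xbp1 mRNA outside the spliceosome, read 44.5, 40.9, 38.9 and 41.4 TPM in SOD1-K123R libraries, against 14.5, 15.7, 17.2 and 16.9 TPM in SOD1-WT libraries. Its groups were well apart, with a log2 fold change of 1.31 (SE 0.09, adjusted p = 3.58e-08).

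Some annotations named genes with other main roles. Hdac7, a histone deacetylase, rose, at 45.9 ± 7.17 TPM in SOD1-K123R and 18.9 ± 2.87 TPM in SOD1-WT. Cir1, a corepressor of Notch signalling, averaged 45.5 ± 7.72 TPM in SOD1-K123R and 18.6 ± 2.22 TPM in SOD1-WT, and Zfp341, a zinc-finger transcription factor, averaged 15.2 ± 0.688 TPM in SOD1-K123R and 7.22 ± 0.802 TPM in SOD1-WT. Syne1, a nuclear envelope protein, and Hmx2, a homeobox factor, fell by 0.67 and 0.50 on the log2 scale. The call for Hmx2 ended after median-of-ratios scaling (adjusted p = 0.0872) and after quantile normalization (adjusted p = 0.0859). Cpeb1, a regulator of cytoplasmic polyadenylation, averaged 3.40 ± 0.169 TPM in SOD1-K123R and 1.32 ± 0.229 TPM in SOD1-WT. Dqx1, a helicase-like gene named after its values were seen, read 5.52, 5.96, 3.63 and 4.88 TPM in SOD1-K123R libraries, against 0.10, 0.210, 0.460 and 0.200 TPM in SOD1-WT libraries, with all SOD1-WT libraries below 0.5 TPM.

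A long noncoding RNA without a symbol (ENSRNOG00000062786) carries spliceosome terms beside terms of chaperone-mediated autophagy. It had 622, 748, 771 and 657 TPM in SOD1-K123R libraries, against 569.9, 563, 575 and 492 TPM in SOD1-WT libraries. Its log2 fold change of 0.34 (SE 0.09, adjusted p = 0.00324) was the smallest rise among the 61 genes and turned to -0.11 after quantile normalization (adjusted p = 0.290). A further long noncoding RNA without a symbol had the 1 pair of overlapping groups, with 2.64, 1.00, 1.92 and 1.08 TPM in SOD1-K123R libraries, against 0.270, 0.280, 1.55 and 0.960 TPM in SOD1-WT libraries. Its call (adjusted p = 0.0308) was lost without SOD1-K123R replicate 1 or 3 (adjusted p = 0.102 and 0.0837) and without SOD1-WT replicate 1 or 2 (adjusted p = 0.0802 and 0.0935).

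**Figure D4:**
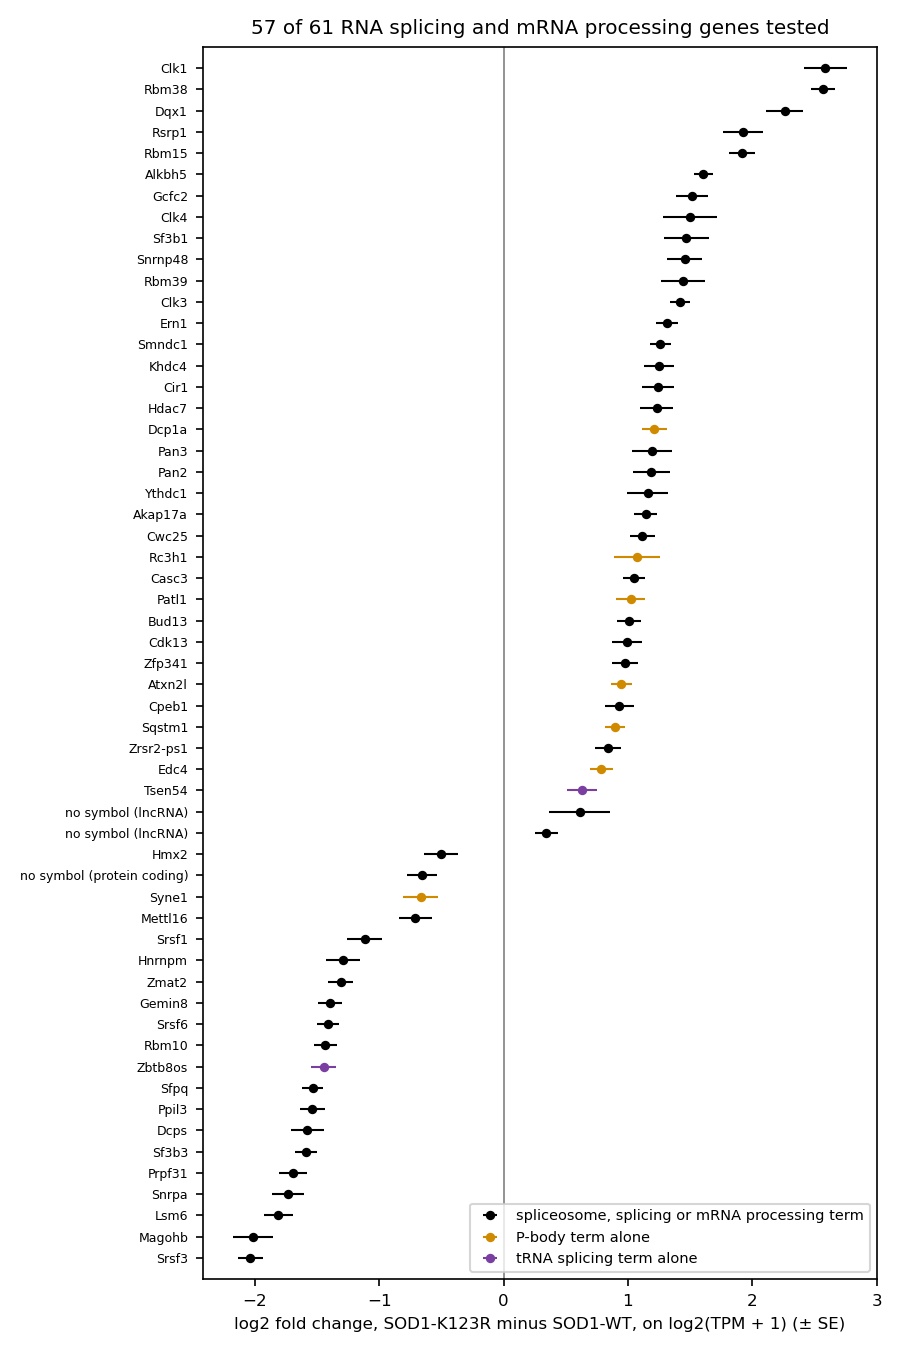
Log2 fold change with its standard error, SOD1-K123R minus SOD1-WT, on log2(TPM + 1) (horizontal axis) for 57 of the 61 tested genes in order (rows), coloured by the annotation that let them in. Clk1 (2.59) and Rbm38 (2.57) are at the top, and Srsf3 (-2.04) and Magohb (-2.01) are at the bottom.

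Many rising genes ranked the libraries within a group alike. For 23 of the 38 rising genes (60.5%), SOD1-K123R replicates 1 and 2 were both above replicates 3 and 4, against 35.2% of all genes higher in SOD1-K123R. In 19 of the 38 (50.0%), SOD1-WT replicate 3 was the highest and replicate 1 the lowest of their group, against 21.6%. Both orders held for 16 of the 38 (42.1%), against 16.1%. The 16 included Clk1, Clk4, Sf3b1, Rbm39, Rsrp1, Ythdc1 and Cdk13. The orders were not planned and were picked with the values of these genes known. That alone can raise their share among these genes, so the shares are description only. The falling genes Srsf1, Hnrnpm and Ppil3 also had both orders. The numbers of replicates have no order and the labels state no pairing between the groups. The shared orders therefore describe which libraries were alike, and their part in the difference between groups was not tested. For these 16 rising genes the lowest SOD1-K123R library remained above the highest SOD1-WT library.

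**Figure D5:**
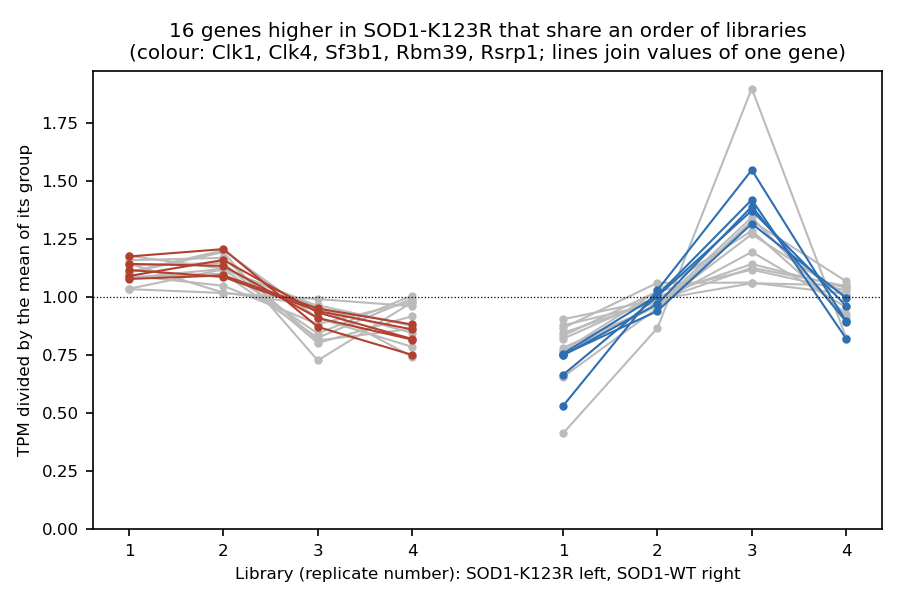
TPM divided by the mean of its group (vertical axis) in the 4 SOD1-K123R libraries (left) and the 4 SOD1-WT libraries (right) for 16 genes that rose, with Clk1, Clk4, Sf3b1, Rbm39 and Rsrp1 in colour. Lines join values of the same gene, and the replicate numbers have no order. The genes were selected for their order of libraries, so SOD1-WT replicate 3 is at the top of its group and replicate 1 at the bottom by construction.

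The 10 genes below 1 TPM were not tested. With symbols these were Celf4 (1.40 ± 0.236 TPM in SOD1-K123R and 0.265 ± 0.110 TPM in SOD1-WT), Celf3 (0.0625 ± 0.0695 TPM in SOD1-K123R and 0.425 ± 0.170 TPM in SOD1-WT) and Mbnl3 (0.830 ± 0.286 TPM in SOD1-K123R and 0.933 ± 0.515 TPM in SOD1-WT), which regulate alternative splicing, Brdt (0.353 ± 0.103 TPM in SOD1-K123R and 0.0800 ± 0.0424 TPM in SOD1-WT), a testis bromodomain protein, and Shfl (0.988 ± 0.408 TPM in SOD1-K123R and 0.173 ± 0.0395 TPM in SOD1-WT), an antiviral inhibitor of translation. The other 5 have no symbol in the table. Among those with symbols, the groups of Celf4, Shfl, Brdt and Celf3 were apart, with Celf3 lower in SOD1-K123R, and those of Mbnl3 overlapped. Values this low are imprecise without known depth.

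Other annotations that the rule did not use were spread over both directions. The term nuclear speck, for the nuclear compartment that stores splicing factors, was on 15 of the 61 genes, 10 of them higher and 5 lower, and over all tested genes it was on 54, with 34 higher and 20 lower. The term RNA binding was on 20, with 10 in each direction. By contrast all 4 genes annotated with protein serine/threonine kinase activity (Clk1, Clk3, Clk4 and Ern1) were higher, where 32 of 53 such genes in all were. The related term protein kinase activity was on 6 of the 61 genes, 5 of them higher and 1 lower. Over all tested genes that term was on 53, with 27 higher and 24 lower.

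Defining markers of the labelled cell type were only partly listed. Of 19 markers of nucleus pulposus cells 9 were listed, with Slc2a1 supplying most of their sum of 1098 to 1191 TPM in SOD1-K123R and 249 to 261 TPM in SOD1-WT, while Acan was near 1 TPM and Col2a1 near 0. Of the 8 tested, 5 were higher (Slc2a1, Sox9, Cd24, Car12 and Nog) and 3 lower (Car3, Cdh2 and Acan). Other cell types had few markers: 1 of 7 endothelial genes, at most 0.46 TPM in any library, and 1 of 8 for macrophages and leukocytes, Cd68, at 26.0 ± 3.56 TPM in SOD1-K123R and 6.89 ± 1.05 TPM in SOD1-WT. Of fibroblast and pericyte markers 3 of 9 were listed, summing to 1321 to 1638 TPM in SOD1-K123R and 1464 to 2545 TPM in SOD1-WT. Within this sum the genes moved apart. Dcn rose, at 1022 ± 145 TPM in SOD1-K123R and 528 ± 39.7 TPM in SOD1-WT. Mcam rose too, and Acta2 fell, at 434 ± 48.8 TPM in SOD1-K123R and 1429 ± 453 TPM in SOD1-WT. The 3 of 8 tendon, 3 of 6 bone and 2 of 8 chondrocyte markers each summed, list by list, to at most 78.8 TPM in any library, and erythroid markers were not analysed here. The part of these markers in the splicing results was not tested.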

How the data were processed

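RNA-seq of 8 rat nucleus pulposus cell libraries was used, 4 labelled SOD1-K123R and 4 labelled WT. Per the labels, RNA was isolated with TRIzol and sequenced as paired ends on an Illumina NovaSeq. The authors deposited a single table of TPM, per the file headers, and its name gives RSEM as the source. The submitters' processing notes name DESeq2 without a role, and no source used here states the aligner, build or annotation. TPM keep no counts, so depth and counting error are unknown. Genes averaging at least 1 TPM over the libraries were fitted with limma 3.58.1 (lmFit, eBayes with trend) in R 4.3.3 on log2(TPM + 1), a scale that understates changes of low genes. The fit was tested on simulated data. Errors are SD over 4 libraries or limma's SE. The annotation phrases, lists, rule and alternatives were chosen with earlier results of these data known. Named were the 12 passing genes with the largest change in each direction, with groups apart and at least 5 TPM in the higher group, and the 2 most abundant of each role list. Others are named to account for the set and were chosen after their values were seen, and 4 of the 61 genes are counted but not reported singly here. Features of proteins were planned but not analysed here, and promoters were taken from RefSeq (GRCr8). Alternatives were another pseudocount, other filters, scalings, annotation phrases, a replicate block and leaving out each library. Library identifiers run unbroken within each group, so handling and group cannot be told apart.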

Additional observations from a re-analysis of the deposited data

Results flagged for a closer look

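In 5 of 116 groups of 4 libraries, over the 58 tested genes with a symbol, 1 library lay apart from the other 3 by Dixon's criterion. Chance marks about 1 group in 20. Alkbh5 read 61.9 TPM in SOD1-K123R replicate 1, below 63.3 to 63.5 TPM for the rest, a small gap in a very tight group. Prpf31 read 6.10 TPM in SOD1-K123R replicate 3 against 8.21 to 8.35 TPM. Rbm10 read 9.55 TPM in SOD1-K123R replicate 4 against 8.30 to 8.51 TPM. Syne1 read 3.15 TPM in SOD1-K123R replicate 3 against 3.83 to 3.94 TPM. Zfp341 read 8.42 TPM in SOD1-WT replicate 2 against 6.75 to 6.93 TPM. All 5 genes passed without each library in turn.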

How the results depend on the processing

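The counts of 38 higher and 23 lower genes became 38 and 21 after median-of-ratios scaling, which shifted the median log2 fold change of all genes tested by 0.35, and 37 and 21 after quantile normalization, which shifted it by 0.24. At least 2-fold lower were 10 after median-of-ratios scaling, against 17, and at least 2-fold higher were 36, against 27. Over all 2890 genes tested the same scaling gave 520 lower, against 1036, and 1136 higher, against 751, so the background shifted likewise. The median log2 fold change of the set was 1.05 with a pseudocount of 0.1, 0.79 with no filter on low values and 1.38 after median-of-ratios scaling, against 0.93. Over all genes tested it was -0.65, -0.14 and -0.14 in the same order, against -0.49. At a mean of at least 5 TPM, 34 genes were higher and 18 lower, beside 948 and 897 of 1896 genes in all. With phrases on splicing alone, 25 were higher, against 38, and 21 lower, against 23, and the median was 0.62. The set is then smaller by construction, but the genes it lost were mostly higher ones. The lean towards higher was therefore weaker with these phrases. Leaving out 1 library at a time gave 37 to 38 higher and 23 lower, 24 to 29 higher and 16 to 18 lower by at least 2-fold, and medians of 0.88 to 0.95. Without the genes that entered through P-body or tRNA splicing terms alone, chosen after the data were seen, 31 were higher and 20 lower. The replicate block gave 38 higher and 23 lower, as without it. Correlations of deviations between same-numbered libraries ran from -0.35 to 0.05, so they gave no sign of pairing by number. They cannot settle the design, since paired samples with little shared variation could give such values. In 494 refits of genes named by the rule no call or direction changed. Depth is unknown and limits the genes below 1 TPM most.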
